A study of Mus musculus with 11 samples.

Results

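The CD300 and CD209 receptors are immune cell surface proteins, and their transcripts were followed here in dendritic cells from the spleen of mice that carry an altered copy of uromodulin. All rows of the deposited expression table whose gene symbol starts with Cd300 or Cd209 were taken, which gave 5 of 417 rows: Cd300ld3, Cd300ld5 and Cd300e, and Cd209c and Cd209f. RNA was sequenced from 5 libraries of heterozygous mice (UMOD C105F/+, replicates 2 to 6) and 6 libraries of wild type littermates (replicates 1 to 6), all on the C57BL/6J strain and aged 12 to 16 weeks. The uromodulin change was made with CRISPR in embryos, turns a cysteine into a phenylalanine through a guanine to thymine change, and is written in the labels both as C105F and as C106F. Spleens were digested with collagenase, and cells other than dendritic cells were removed with magnetic beads, so the cells were not sorted on a dendritic cell marker. The labels give no sex, batch or injury and do not say that each library came from its own mouse, so a p-value here reflects only how far these libraries spread, which may be technical.

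CD300 receptors are immunoglobulin-like proteins of myeloid cells that bind lipids such as those exposed on dying cells. The family is paired: some members carry inhibitory motifs in a long tail, and others have a short tail and signal through activating adaptor proteins. CD209 receptors are C-type lectins that bind sugars on microbes and on host glycoproteins, and the mouse genes are relatives of human DC-SIGN, a receptor of dendritic cells.

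The deposited table was itself selected on the difference between C105F/+ and wild type. The smallest absolute fold among its rows was 2.0009 and the largest unadjusted p was 0.0493, which places all of them past limits of 2 and 0.05. A p-value for a row of this table is therefore a description and not independent evidence. The adjusted p-values computed here were adjusted only over such preselected rows. The authors' adjusted p-values were copied as deposited and are not a like measure. Of the rows, 253 were higher in C105F/+ and 164 were lower, so 60.7% were higher, and all 5 receptor rows were among these. Umod and the 8 general dendritic cell markers listed for this check (among them Itgax, Flt3 and Zbtb46) have no row, so neither the genotype nor the cell type of the libraries was checked here. The relative depth recovered from the authors' means was lowest in wild type 1 (0.615) and highest in C105F/+ 2 (1.98). Scaled counts below are read counts divided by these size factors.

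The CD300 rows lie next to each other in the genome. In the RefSeq annotation of GRCm38.p6, Cd300ld5 lies at chromosome 11, 115031447 to 115037780, Cd300ld3 at 115042104 to 115048419 and Cd300e at 115051917 to 115066676. All 3 are protein-coding genes on the minus strand. They are consecutive, with 4323 and 3497 bases between them, and span 35230 bases. The cluster holds 11 Cd300 genes, and the family has 12 genes in RefSeq, of which 3 have a row; the others were not analysed here. Cd209c lies at chromosome 8, 3940081 to 3954746, and Cd209f at chromosome 8, 4102784 to 4105838, both on the minus strand, and 2 of the 7 Cd209 genes in RefSeq have a row.

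**Figure D1:**
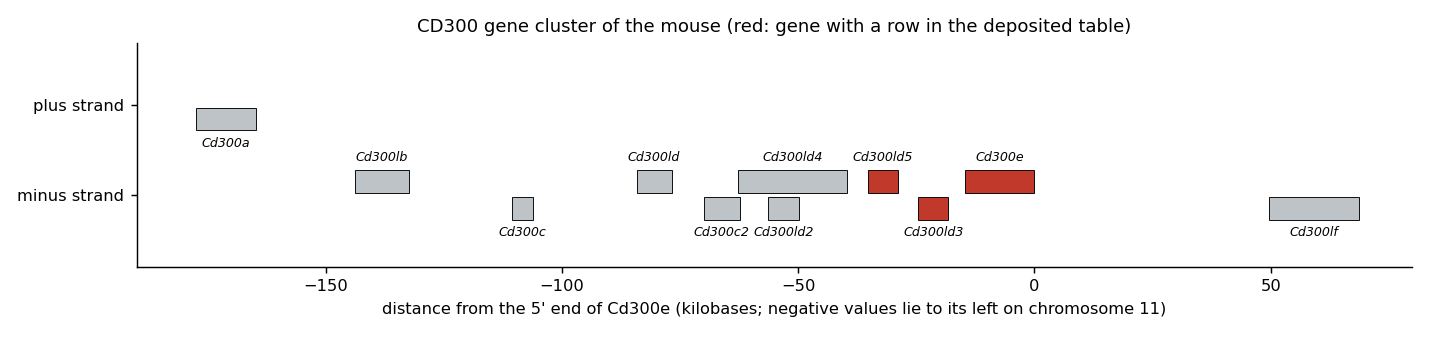
Map of the CD300 cluster. The horizontal axis gives the distance in kilobases from the 5' end of Cd300e, the vertical axis the strand, boxes are RefSeq genes staggered for legibility, and red marks the 3 genes with a row, which are consecutive and span 35230 bases.

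The start regions of the 3 CD300 genes show how alike 2 of them are, which bears on how far their counts can be separated. The sequences are those of RefSeq on GRCm38.p6, minus strand, 250 bases before to 50 bases after 1 annotated start per gene, at chr11:115048281-115048580 for Cd300ld3, chr11:115037641-115037940 for Cd300ld5 and chr11:115061990-115062289 for Cd300e. The starts these regions are built on, 115048330, 115037690 and 115062039, lie 89, 90 and 4637 bases inside the outer 5′ ends of the genes given above and 79, 79 and 138 bases inside the 5′ ends of their GENCODE transcripts. Positions below are counted from the starts of the regions' table, and by the other 5′ ends some of the letters are within the gene. Capitals mark AGGAAGT, letters of the kind that ETS family factors bind.
Cd300ld3: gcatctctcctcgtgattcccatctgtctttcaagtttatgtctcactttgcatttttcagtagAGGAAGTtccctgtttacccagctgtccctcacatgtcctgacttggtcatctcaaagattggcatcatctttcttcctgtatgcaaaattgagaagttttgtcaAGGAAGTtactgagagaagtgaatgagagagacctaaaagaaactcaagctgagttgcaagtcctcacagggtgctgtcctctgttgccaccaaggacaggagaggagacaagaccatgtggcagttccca
Cd300ld5: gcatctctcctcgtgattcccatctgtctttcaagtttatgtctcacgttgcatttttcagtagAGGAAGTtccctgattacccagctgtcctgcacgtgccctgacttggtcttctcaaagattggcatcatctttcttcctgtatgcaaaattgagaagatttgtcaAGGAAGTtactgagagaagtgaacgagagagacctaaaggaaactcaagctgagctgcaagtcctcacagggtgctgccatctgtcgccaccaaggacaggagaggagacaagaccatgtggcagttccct
Cd300e: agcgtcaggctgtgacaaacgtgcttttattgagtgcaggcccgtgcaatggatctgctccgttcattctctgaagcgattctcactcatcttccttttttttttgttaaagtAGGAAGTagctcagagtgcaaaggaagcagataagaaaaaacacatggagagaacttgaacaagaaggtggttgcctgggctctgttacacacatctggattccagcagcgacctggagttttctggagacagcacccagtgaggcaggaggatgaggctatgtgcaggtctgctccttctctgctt
The Cd300ld3 and Cd300ld5 regions were identical at 285 of 300 aligned bases (95%), and the region of Cd300ld4, a gene without a row, was identical to that of Cd300ld5 at all 300. Cd300ld3 and Cd300e aligned at 47.5% identity, gaps counted.

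AGGAAGT was searched on both strands. It occurred at 2 places in the Cd300ld3 region and at 2 in the Cd300ld5 region, with its first base 186 and 81 bases before the start so defined, and at 1 place in the Cd300e region, 137 bases before it. It was absent from the Cd209c and Cd209f regions. The starts of those regions lie 7883 and 74 bases inside the outer 5′ ends of the RefSeq genes. They lie 0 and 71 bases inside the 5′ ends of the GENCODE transcripts. By the RefSeq end the whole Cd209c region is within the gene. Of 32851 RefSeq start regions of the same length, 3072 (9.35%) held AGGAAGT. The letters were chosen with the sequences seen, and the near-identical Cd300ld3 and Cd300ld5 regions are not separate cases. This share is therefore given for scale and is no test. TGANTCA, letters of the kind that AP-1 factors bind, occurred in the Cd209f region, 83 bases before the start, and in none of the other 4, against 7.81% of all regions. AAAGGTCA, letters of the kind that NR4A nuclear receptors bind, occurred in none of the 5, against 1.51% of all regions. A match is a description of letters and not a binding site.

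The transcripts of the Cd300ld genes are nearly the same as well. The 852-base coding transcripts of Cd300ld3 and Cd300ld5 were identical at 843 bases (98.9%), and that of Cd300ld4 differed from Cd300ld5 at 1 base. Of all 50-base windows of a transcript, 82.1% in Cd300ld3 and 100% in Cd300ld5 occur in a transcript of another gene, against 0% in Cd300e, 16.5% in Cd209c and 38.2% in Cd209f, whose copy is Cd209g. The table also lists the Cd300ld3 and Cd300ld5 transcripts at 2 genomic places each. The sources used here do not say how the authors' counting shared such reads, so the Cd300ld3 and Cd300ld5 counts are uncertain as to which of the near-identical copies they came from.

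Cd300ld3, also named Clm3 and Lmir7, belongs to the short-tailed members of the family. Its scaled counts in C105F/+ replicates 2 to 6 were 746, 75.9, 215, 711 and 681. In wild type replicates 1 to 6 they were 61.8, 213, 59.8, 28.3, 127 and 96.8. C105F/+ replicates 2, 5 and 6 stood far above every wild type library, C105F/+ 4 was level with wild type 2, and C105F/+ 3 lay inside the wild type range, so the groups overlapped. The means were 486 ± 316 (SD, n = 5) and 97.9 ± 66.0 (SD, n = 6), 4.96-fold higher in C105F/+. By edgeR's quasi-likelihood test, with Benjamini-Hochberg adjustment over 322 rows, the log2 fold change was 2.31 (SE 0.60) with an adjusted p of 0.0226. With all 462 ways to assign the libraries enumerated, an exact permutation test (two-sided, smallest possible p 0.0022) gave p = 0.0281, and 0.0506 after adjustment over all rows. In the authors' deposited table the fold was 4.96 with an adjusted p of 0.0105.

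Without C105F/+ 2, 5 or 6 the edgeR log2 fold change of Cd300ld3 was 2.1, 2.13 or 2.16 and its adjusted p 0.0566, 0.0653 or 0.0573, in fits that called 8, 10 or 13 rows of the table higher. The call also ended when the libraries were scaled to each other on the rows of the table, with a log2 fold change of 1.17 (edgeR adjusted p = 0.11) under TMM scaling and 1.37 (0.0544) under median of ratios. Such scaling takes most rows as unchanged, but every row of this table was selected on a difference. These fits are therefore not an independent check of the call, and the same holds for the receptors below.

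Cd300ld5, for which no separate role is given here, was the less abundant of the near-identical pair. Its scaled counts in C105F/+ replicates 2 to 6 were 252, 20.9, 95.8, 239.9 and 184. In wild type replicates 1 to 6 they were 60.2, 80.7, 47.2, 24.1, 133 and 51.1. C105F/+ 2, 5 and 6 were again above every wild type library, while C105F/+ 3 was the lowest of all 11 libraries. The means were 158 ± 98.5 (SD, n = 5) and 66.1 ± 37.7 (SD, n = 6), a ratio of 2.40. The edgeR log2 fold change of 1.26 (SE 0.58) did not pass, with an adjusted p of 0.0551, and the exact permutation p was 0.186. In the authors' deposited table the adjusted p was 0.198. Without C105F/+ 3 the edgeR adjusted p was 0.0148, and without wild type 5 it was 0.0410. Under TMM and median of ratios scaling on the rows of the table the log2 fold change was 0.16 and 0.35, with an edgeR adjusted p of 0.86 and 0.54.

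Cd300e encodes a receptor that in humans is found on monocytes and activates them through the adaptor DAP12. It had the highest mean FPKM of the 5 receptor rows. Its scaled counts in C105F/+ replicates 2 to 6 were 2585, 672, 938, 2345 and 2141. In wild type replicates 1 to 6 they were 800.3, 1632, 758, 239, 1129 and 561. C105F/+ 2, 5 and 6 were above every wild type library, and C105F/+ 3 and 4 were inside the wild type range. The means were 1736 ± 869.6 (SD, n = 5) and 853 ± 481 (SD, n = 6), a ratio of 2.04. The edgeR log2 fold change of 1.02 (SE 0.48) did not pass, with an adjusted p of 0.0557, the exact permutation p was 0.0823, and the log2 fold change was -0.047 (edgeR adjusted p = 0.94) under TMM scaling on the rows of the table. In the authors' deposited table the fold was 2.03 with an adjusted p of 0.200. Without C105F/+ 3 the edgeR adjusted p was 0.0283, and without wild type 2 it was 0.0436.

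Cd209c, also named SIGNR2, is a C-type lectin of the DC-SIGN group. Its scaled counts in C105F/+ replicates 2 to 6 were 78.8, 34.1, 84.9, 161 and 152. In wild type replicates 1 to 6 they were 37.4, 31.7, 36.8, 0, 20.2 and 20.6. All C105F/+ libraries but replicate 3 were above every wild type library, and wild type 4 held no read. The means were 102 ± 53.4 (SD, n = 5) and 24.5 ± 14.2 (SD, n = 6), 4.18-fold higher in C105F/+. By edgeR the log2 fold change was 2.06 (SE 0.72) with an adjusted p of 0.0319, and the exact permutation p was 0.0130, or 0.0413 after adjustment over all rows. In the authors' deposited table the fold was 4.19 with an adjusted p of 0.0576. Without C105F/+ 2, 5 or 6 the log2 fold change was 2.14, 1.84 or 1.87 and the edgeR adjusted p 0.0617, 0.0754 or 0.0697. Under TMM and median of ratios scaling on the rows of the table the log2 fold change was 1.00 and 1.23, with an edgeR adjusted p of 0.354 and 0.194.

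Cd209f, also named SIGNR8, was close to the limit of detection. It had 4, 16, 3, 5 and 0 reads in C105F/+ replicates 2 to 6 and 0 in each of the 6 wild type libraries. Of the 28 reads in all, C105F/+ 3, the library that was low for the other receptors, held 16. The mean scaled count in C105F/+ was 5.16 ± 5.92 (SD, n = 5), at least 9.95-fold higher than wild type, where the limit is 3 counts over the whole wild type group (0.519 scaled counts). Without C105F/+ 3 the bound was 5.13. The count was too low for edgeR's filter, and the exact permutation p was 0.0152, or 0.0413 after adjustment over all rows. In the authors' deposited table the fold was 26.5, with an unadjusted p of 0.0183 and no adjusted p. At this depth a lower level in wild type libraries cannot be told from none.

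**Figure D2:**
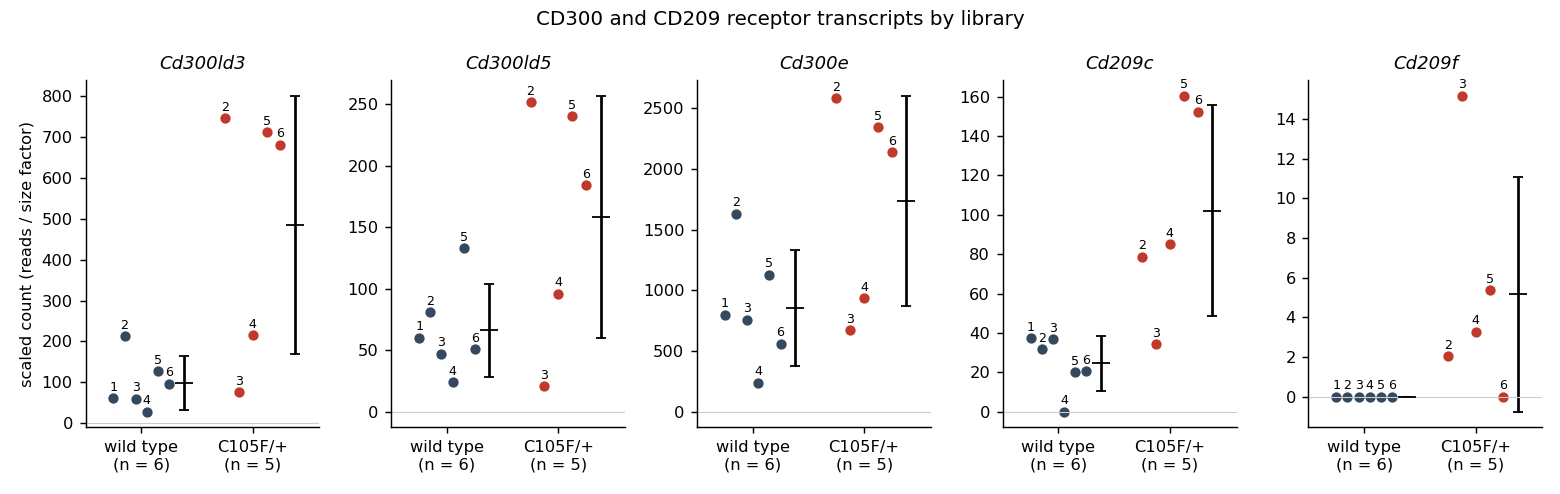
Scaled counts (reads divided by the size factor, vertical axes from different ranges) of the 5 receptor genes in wild type (n = 6) and C105F/+ (n = 5) libraries. Points are libraries and bars are the mean ± SD; the groups overlap in every panel, and 4 C105F/+ libraries lie above all wild type libraries for Cd300ld3, Cd209c and Cd209f and 3 for Cd300ld5 and Cd300e.

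Among the rows it tested, edgeR called 2 of 4 receptor genes, both higher in C105F/+, where it called 169 of 322 rows (52.5%) higher and 71 (22%) lower. The groups overlapped for all 5 receptor genes, whereas they did not overlap for 42 of 417 rows higher in C105F/+ (10.1%) and for 14 lower (3.36%). The exact permutation p was under 0.05 for 3 of 5, all higher, against 45.6% of rows higher and 22.1% lower by that rule. DESeq2 called all 5 receptor genes higher, against 55.4% of rows, and of the 4 receptor rows with an adjusted p in the authors' deposited table, 1 was under 0.05, against 29.8% of such rows higher and 7.8% lower. The median log2 fold change over the 322 rows was 1.11, so Cd300ld3 and Cd209c lay above it by more than their SE, and Cd300ld5 and Cd300e differed from it by less than theirs. By edgeR the receptors' share of calls was near that of the table. In bulk libraries a change in the number of cells of a type and a change in RNA per cell cannot be told apart.

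Levels of different genes were set side by side per length, as FPKM. In C105F/+ libraries the mean FPKM was 18.3 ± 9.84 (SD, n = 5) for Cd300e, 13.6 ± 9.12 for Cd300ld3, 4.02 ± 2.61 for Cd300ld5, 1.34 ± 0.727 for Cd209c and 0.0818 ± 0.0907 for Cd209f. In wild type libraries it was 7.72 ± 4.23 (SD, n = 6) for Cd300e, 2.35 ± 1.55 for Cd300ld3, 1.44 ± 0.875 for Cd300ld5, 0.266 ± 0.146 for Cd209c and 0 for Cd209f. The order of the means was the same in both groups. Within C105F/+, Cd300e and Cd300ld3 lay within their spread of each other, and in wild type so did Cd300ld3 and Cd300ld5.

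The balance among the CD300 genes within a library was described by ratios of read counts, which need no scaling between libraries. Cd300ld3 had 2.97, 3.64, 2.24, 2.96 and 3.70 reads per Cd300ld5 read in C105F/+ replicates 2 to 6, and 1.03, 2.64, 1.27, 1.17, 0.956 and 1.89 in wild type replicates 1 to 6. The means were 3.10 ± 0.598 (SD, n = 5) and 1.49 ± 0.654 (SD, n = 6), and wild type 2 was inside the C105F/+ range. Cd300ld3 had 0.289, 0.113, 0.229, 0.303 and 0.318 reads per Cd300e read in C105F/+, with a mean of 0.250 ± 0.0840 (SD, n = 5), against 0.115 ± 0.0355 (SD, n = 6) in wild type. The ratio in C105F/+ 3 was inside the wild type range, which ran from 0.0772 to 0.173. Cd300ld5 had 0.0837 ± 0.0302 (SD, n = 5) reads per Cd300e read in C105F/+ and 0.0828 ± 0.0254 (SD, n = 6) in wild type, so these means differed by less than the spread. These ratios come from the contrast that selected the rows and carry no test. The Cd300ld3 and Cd300ld5 counts are uncertain as to which near-identical copy they came from. Ratios that hold either count therefore need not be ratios between the named genes.

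**Figure D3:**
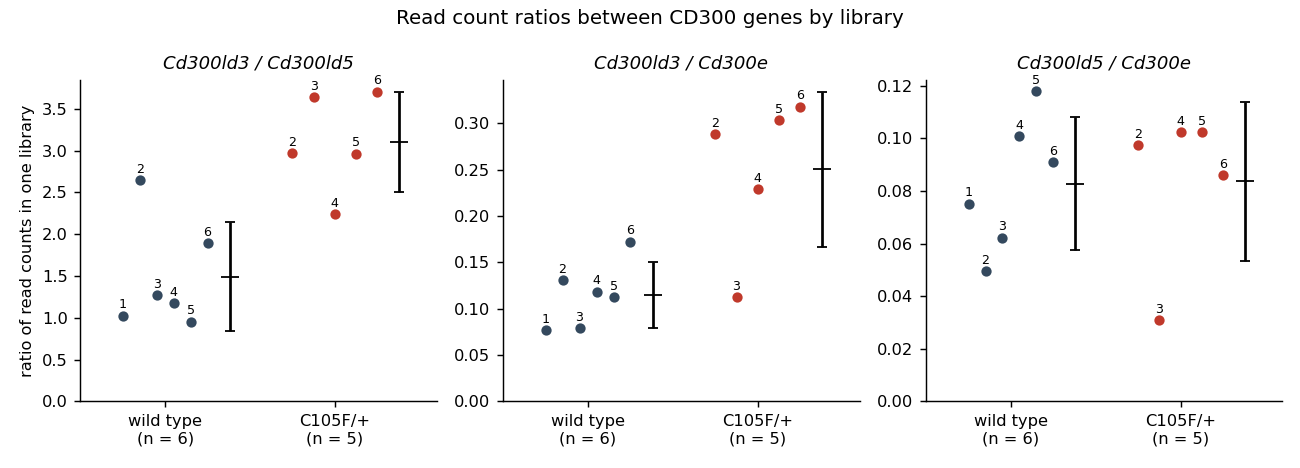
Ratios of read counts between CD300 genes in each library, by group (wild type n = 6, C105F/+ n = 5); points are libraries and bars the mean ± SD. Cd300ld3 per Cd300ld5 averaged 3.10 in C105F/+ and 1.49 in wild type, and Cd300ld5 per Cd300e averaged 0.0837 and 0.0828. The Cd300ld3 and Cd300ld5 counts are uncertain as to which near-identical copy they came from.

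Because reads of the near-identical copies may have been divided between them, Cd300ld3 and Cd300ld5 were also summed. Cd300ld4, which differed from Cd300ld5 at 1 base, and Cd300ld2, which shares windows with both, have no row and are not in the sum. Reads divided with those copies therefore remain uncertain. The sum was 644 ± 412 scaled counts (SD, n = 5) in C105F/+ and 164 ± 93.7 (SD, n = 6) in wild type, a ratio of 3.93, and 4 of 5 C105F/+ libraries were above every wild type library.

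The CD300 rows varied together between libraries of a group. Deviations of log2(scaled count + 1) from the group mean correlated over the 11 libraries with a Pearson r of 0.93 for Cd300ld3 and Cd300ld5, 0.92 for Cd300ld3 and Cd300e and 0.86 for Cd300ld5 and Cd300e. The first of these pairs may share reads, and all share libraries and size factors. Cd300e and Cd209c gave 0.77, and 0.24 without the 2 libraries farthest from the median. Cd209f had negative values with the other 4, from -0.25 with Cd209c to -0.59 with Cd300ld5, at 7 libraries without a read.

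By the same measure, the 3 rows most like each receptor were found among 318 rows that passed edgeR's filter. For Cd300e these were S1pr5 (r = 0.99, Spearman's rho 0.94), a receptor for the lipid sphingosine 1-phosphate, Ace (0.97, rho 0.93), which encodes angiotensin converting enzyme, and Tgm3 (0.93, rho 0.85), a transglutaminase. Cd300ld3 was most like Itgal (0.96, rho 0.93), the alpha chain of the integrin LFA-1, then S1pr5 (0.91, rho 0.94) and Ace (0.90, rho 0.95). Cd300ld5 was most like Txndc5 (0.94, rho 0.79), a protein disulphide isomerase of the endoplasmic reticulum, Itgal (0.94, rho 0.81) and the chemokine receptor gene Ccr10 (0.92, rho 0.73).

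Ace and S1pr5 were high and low in much the same libraries as Cd300e. The scaled counts of Ace in C105F/+ replicates 2 to 6 were 9809, 1887, 2947, 10512 and 9501. In wild type replicates 1 to 6 they were 1482, 5172, 2188, 250.3, 2386 and 1761. Those of S1pr5 were 935, 218, 267, 935 and 946 in C105F/+, and 203, 750.0, 199, 45.0, 319 and 169 in wild type. The high C105F/+ libraries 2, 5 and 6 and the high wild type library 2 were the same as for Cd300e, and so was the lowest library, wild type 4. Without the 2 libraries farthest from the median, the r of Cd300e was 0.97 with S1pr5 and 0.92 with Ace.

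Cd209c followed other rows: Pacsin1 (r = 0.98, rho 0.84), which encodes an adaptor of membrane trafficking and is a marker of plasmacytoid dendritic cells in the list used here, Dntt (0.98, rho 0.81), the DNA polymerase terminal transferase, and the transcription factor gene Egr3 (0.98, rho 0.80). Pacsin1 had scaled counts of 1209, 611, 1076, 1896 and 1659 in C105F/+ replicates 2 to 6 and 543, 619, 795, 68.1, 538 and 601 in wild type replicates 1 to 6. Wild type 4 was lowest for Pacsin1, Dntt and Egr3 as for Cd209c, and without the 2 libraries farthest from the median the r values were 0.81, 0.82 and 0.80. Cd209f gave 0.79, 0.76 and 0.74 with A930013F10Rik, Ndn and Ttc9, and -0.16, -0.13 and -0.14 without the 2 farthest libraries, one of which was C105F/+ 3.

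**Figure D4:**
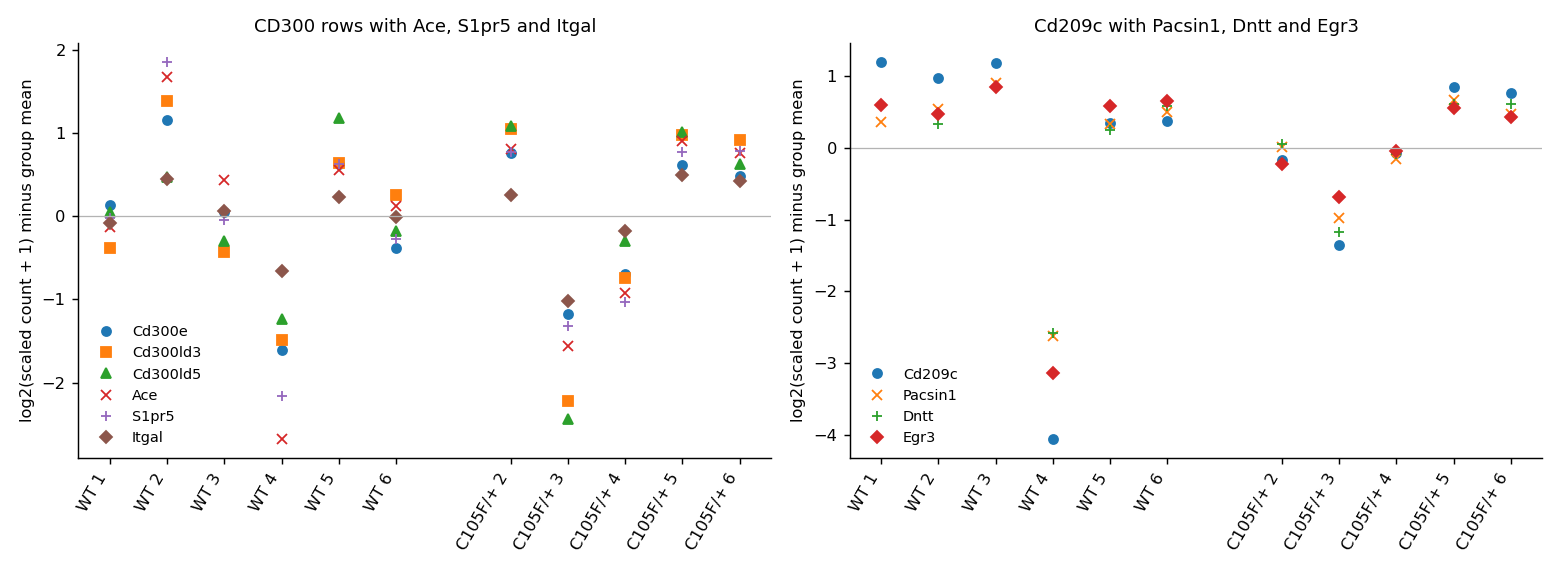
Deviation of log2(scaled count + 1) from the group mean (vertical axis) in each library (horizontal axis, wild type 1 to 6 and C105F/+ 2 to 6), for the CD300 rows with Ace, S1pr5 and Itgal (left) and for Cd209c with Pacsin1, Dntt and Egr3 (right). Wild type 4 and C105F/+ 3 lie lowest of their groups for each gene drawn. Cd300e and Cd300ld3 track S1pr5 (r = 0.99 and 0.91) and Ace (0.97 and 0.90), which are not among the 3 rows most like Cd300ld5.

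Other genes of the receptors' pathways had few rows. None of 16 signalling partners of such receptors (among them the adaptors Tyrobp and Fcer1g) and none of 25 receptors for lipids of dying cells had one. Of 29 other C-type lectins listed as myeloid 2 had a row: Fcer2a, the low-affinity IgE receptor, was 3.40-fold higher in C105F/+ (edgeR adjusted p = 0.0226), and Mrc2, an endocytic collagen receptor, was 2.22-fold lower (0.0295). Fcer2a is also in the B cell list used here and is counted again there. Of 38 other paired immunoglobulin-like receptors in the list used here 1 had a row, Trem1, an activating receptor of neutrophils and monocytes, 3.24-fold higher (edgeR adjusted p = 0.0295). The list was not complete. Tarm1, a myeloid receptor gene outside it, was called lower, with a log2 fold change of -1.38 (edgeR adjusted p = 0.0373).

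Markers of other cell types moved with the groups as well, and their part in the receptor results was not tested. Of 152 distinct markers in 14 lists 42 had a row under the listed symbol, and of the 41 that edgeR tested 37 were called higher in C105F/+ and 1 lower, against 52.5% and 22% of all tested rows. Of 12 nonclassical monocyte markers 3 had a row: Cd300e itself, Ace (3.14-fold higher) and Itgal (2.13-fold higher), the latter both called, and the sum of Ace and Itgal ran from 9934 to 33663 scaled counts in C105F/+ and from 5301 to 16079 in wild type. Of 8 markers of plasmacytoid dendritic cells only Pacsin1 had a row, and of 8 cDC1 markers only Itgae, which edgeR called 3.74-fold higher. No marker of splenic macrophages (16 listed), of cDC2 (8) or of dendritic cells in general (8) had a row.

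Lymphoid and granulocyte markers did likewise. Rows of 6 of 12 B cell, 7 of 11 plasma cell, 4 of 13 T cell and 4 of 13 neutrophil markers were all called higher in C105F/+ by edgeR, as were 4 of 11 endothelial and erythroid markers, where 52.5% of all tested rows were called higher. Markers were matched by symbol. Fam46c, an earlier symbol of the listed plasma cell marker Tent5c, was also called higher (log2 fold change 1.30, edgeR adjusted p = 0.0236). It is in neither these counts nor the sum below. Of 11 NK cell markers 5 had a row and 3 were called higher, and of 13 markers of eosinophils, basophils and mast cells 4 had a row, with 3 called higher and 1, Mcpt1, lower. The sum over the plasma cell markers ran from 19139 to 216936 scaled counts in C105F/+ and from 21258 to 32200 in wild type. Most of that sum is Jchain, the joining chain of secreted antibodies, with a mean of 134484 ± 76608 scaled counts (SD, n = 5) in C105F/+ and 18081 ± 3423 (SD, n = 6) in wild type. Txndc5, the row most like Cd300ld5, is in the same list.

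**Figure D5:**
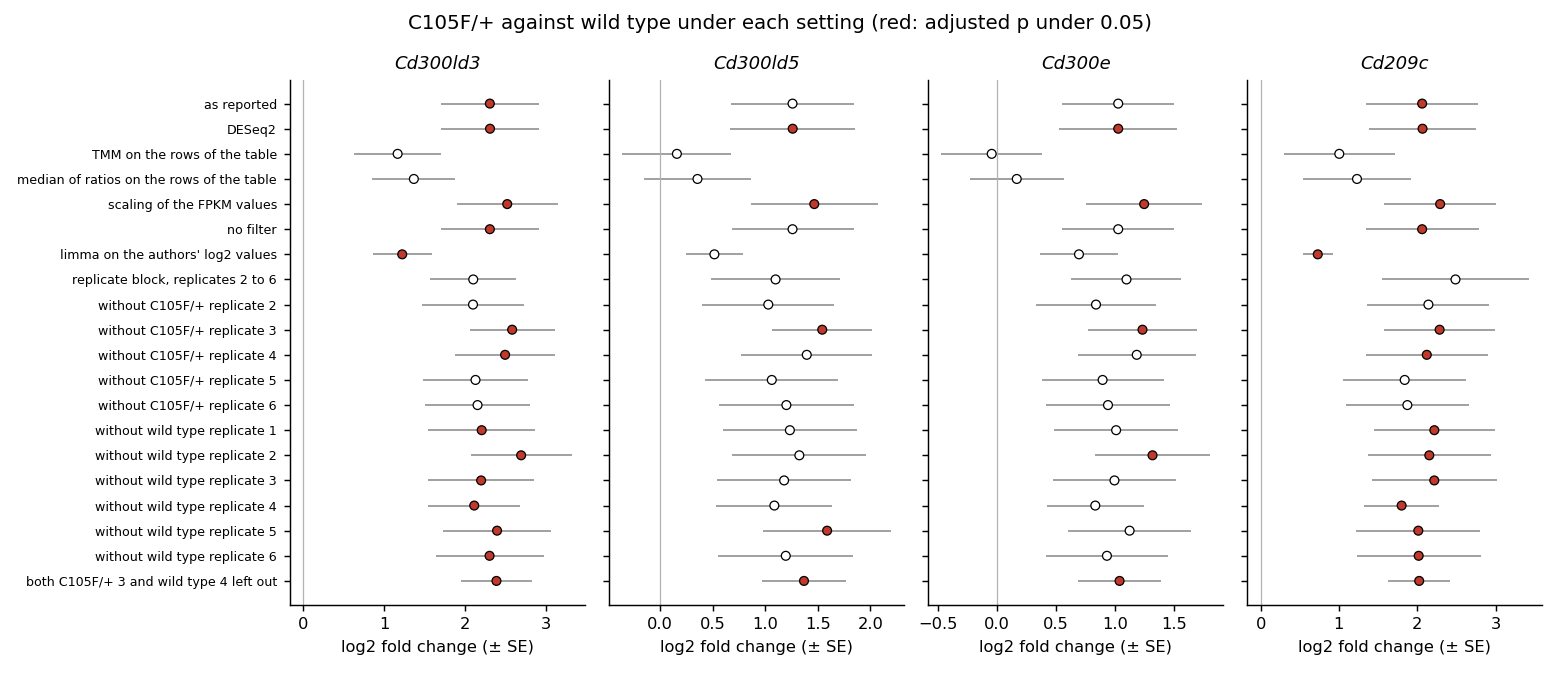
Log2 fold change (± SE, horizontal axes) of C105F/+ against wild type for the 4 tested receptor genes under each processing setting (vertical axis); red points have an adjusted p under 0.05. Cd300ld3 ranged from 1.17 to 2.69, Cd300ld5 from 0.16 to 1.59 and Cd209c from 0.73 to 2.49, all above 0, while Cd300e ranged from 1.32 down to -0.047, its value under TMM scaling. The lowest Cd209c value is from limma on the authors' log2 normalized values, which are on a different scale. The next lowest was 1.00, under TMM scaling.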

How the data were processed

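RNA of 11 libraries was measured by directional sequencing after oligo(dT) selection, per the labels' protocols. The submitters' processing notes list, without settings, the mouse build mm10, the aligners Bowtie2 2.3.4.1 and HISAT2 2.1.0, the read trimmer Trimmomatic 0.38, the quality tool FastQC 0.11.7, the assembler StringTie 2.1.3b and the count test DESeq2. The authors deposited read counts per library without normalization, FPKM values, and log2 normalized values whose transformation the sources used here do not state. They also deposited a p-value and adjusted p-value, a signed fold and a score equal to the log2 fold over its standard error. The deposited signal column is the mean of counts divided by size factors. The authors left 122 rows without an adjusted p, and these stay without one.

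The size factors were solved from the counts and these means (largest relative error 4.22e-15). The table gives no library totals, so depth is known only relative to the other libraries. Counts were tested with edgeR 4.0.16 in R 4.3.3 (quasi-likelihood, two-sided, its own filter on low counts, Benjamini-Hochberg over 322 rows, threshold 0.05). The SE of an edgeR log2 fold change was derived as the absolute change over the square root of that test's F statistic. Permutation tests used log2(scaled count + 1). Alternatives used DESeq2 1.42.0 and limma 3.58.1. On simulated counts of 332 genes for this comparison the edgeR step called 71 of 86 genes with a log2 change of 1, all 76 with a change of 2 and 3 of 170 unchanged genes. Every simulated gene had the same fixed dispersion, and none was selected on a difference. Median errors in log2 change were 0.193 to 0.212 there, while the SEs of the tested receptors were 0.48 to 0.72. The rates above therefore do not carry over to the receptor rows. Sequences and gene positions come from RefSeq on GRCm38.p6, the assembly of mm10, and transcripts from GENCODE.

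The genes and lists were chosen with earlier results of these data known, and the motif letters with the sequences seen. Named genes are the 5 receptors, the 3 rows most like each, pathway genes with a row and up to 3 rows of each marker list. The values of 1 marker list are not reported here.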

Additional observations from a re-analysis of the deposited data

Results flagged for a closer look

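Each group of 4 to 10 libraries was examined for a single library far from the others. Of 28 groups of values examined, 2 met the criterion, and chance marks about 1 in 20 groups. The size factor of C105F/+ 2 was 1.98, the highest of the C105F/+ libraries and well away from the next, so this library was the most deeply read. The ratio of Cd300ld5 to Cd300e reads in C105F/+ 3 was 0.0310, from 22 and 709 reads, the lowest of the C105F/+ libraries and well below the next. Neither was tested for a cause.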

How the results depend on the processing

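The number of receptor genes called by edgeR, 2 as reported, was 5 with DESeq2, 4 under FPKM scaling and 4 with both C105F/+ 3 and wild type 4 left out, an alternative chosen after seeing the data. It was 0 under TMM and 0 under median of ratios scaling on the rows of the table, where 1 of 4 had an unadjusted p under 0.05 in each. Leaving out 1 library gave 0 to 4: 4 without C105F/+ 3, and 0 without C105F/+ 2, 5 or 6, with 2 of 4 at an unadjusted p under 0.05 each time. Rows called higher, 169 as reported, were 8 under TMM and 12 under median of ratios, and 8 to 190 with 1 library left out. Rows called lower, 71 as reported, were 146 with DESeq2, 45 under FPKM scaling, 108 without the filter and 3 to 90 with 1 library left out. TMM, median of ratios and FPKM scaling moved the median log2 fold change of all rows by -0.96, -0.75 and 0.18, and the share of calls that were higher from 70.4% to 7.02%, 11.7% and 81.1%. TMM and median of ratios scaling take most rows as unchanged, whereas every row here was selected on a difference and 60.7% were higher. Their loss of higher calls is therefore not independent evidence about the receptors. The shift under FPKM scaling was not tested for a cause.

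Libraries with the same number deviated together with correlations of -0.09 to 0.10, so no pairing by number was seen in these rows. The rows were selected on the group difference, so they cannot settle whether libraries were paired. With a replicate block over replicates 2 to 6, 0 receptor genes, 0 rows higher and 0 rows lower were called, with 166 rows at an unadjusted p under 0.05 and a smallest edgeR adjusted p of 0.0808.

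In the exact permutation test the log2 difference ranged over the libraries left out from 1.84 to 2.69 for Cd300ld3, 0.74 to 1.62 for Cd300ld5, 0.74 to 1.36 for Cd300e, 1.62 to 2.77 for Cd209c and 1.59 to 2.59 for Cd209f. The fold change of Cd300e turned to -0.047 under TMM. Without centring on the group, Cd209f correlated at -0.22, -0.17 and -0.11 with A930013F10Rik, Ndn and Ttc9.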
